A study of Mus musculus with 12 samples.

Results

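Brush border digestive enzymes sit in the apical membrane of small intestinal enterocytes and finish the digestion of sugars, peptides and phosphate esters at the surface where the products are absorbed. The actin-bundling protein villin holds up the microvilli that carry them. Of 10 listed genes (Lct, Sis, Alpi, Treh, Anpep, Enpep, Dpp4, Mep1a, Mep1b and Vil1), 8 were measured by 9 probe sets that carried exactly 1 of these symbols, out of 22626 probe sets and 12393 genes in all. Sucrase-isomaltase (Sis) and intestinal alkaline phosphatase (Alpi) are not analysed here. Dpp4 had 2 probe sets, and the one with the higher mean over the arrays stands for the gene below.

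Disaccharidases follow a gradient along the gut. Lactase (Lct) and trehalase (Treh) are known as proximal enzymes that are most abundant in the jejunum and scarce in the distal ileum, whereas several brush border peptidases stay abundant in the ileum. Lactase also releases flavonols such as quercetin from their glucosides at the enterocyte surface.

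The arrays carried RNA from the scraped epithelial layer of the ileum of male C57BL/6 mice aged 6 to 8 weeks, in 4 groups of 3 arrays, each array a pool of 3 mice. The ileum was taken as the most distal of 3 equal lengths of small intestine. The groups were wild-type control, wild-type quercetin, POR-null control and POR-null quercetin. POR-null mice lack NADPH-cytochrome P450 reductase, the electron donor of microsomal P450 enzymes; the tissues of the deletion are not given in the labels, and Por itself is not analysed here. All mice were kept on soya-free powdered food for 14 days. For the next 24 h the control groups stayed on it, and the quercetin groups received it with this flavonol mixed in at 6.2 g per kg; the stated dose was 7 mg per mouse. Levels are log2 values, so a difference of 1 is a doubling of signal, and values of different probe sets are not compared as amounts of RNA. A pool of scraped tissue cannot tell fewer enterocytes from less RNA per enterocyte.

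General enterocyte genes were bright on every array: Fabp2, the intestinal fatty acid binding protein, lay between 13.16 and 13.62 and the lectin Lgals4 between 12.68 and 12.90. Fabp6, the ileal bile acid binding protein that marks the distal small intestine, lay between 12.05 and 12.76. Of the liver markers the albumin gene Alb had a mean of 5.69 and Ttr one of 6.69, and of the pancreas markers Cpa1 had a mean of 4.95, Ins2 6.27 and Cela1 6.96, where the array medians were 5.91 to 5.96. The mean centred levels of these lists stayed within -0.20 and 0.13 on every array. Wild-type control replicate 2 stood apart from the other arrays on the first principal component, which held 19.69% of the variance. Its score there was -25.57, against -10.80 to 10.56 elsewhere, and the differences it moves are given with and without it. In the alternative fit with weights for arrays, wild-type control replicate 1 had the lowest weight, 0.64. The weight of replicate 2 was 0.71, and those of the other arrays were 0.92 to 1.42. Wild-type quercetin replicate 2 held the highest level of the colonic carbonic anhydrase gene Car1, 10.17 against 6.04 to 7.54 on the other 11 arrays.

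The sequence before the transcription start is shown for Lct and Treh, the members whose levels varied most, and for Dpp4 and Vil1, whose brighter or only probe set varied little. Each run is the 250 bases upstream of the start, 5′ to 3′, from RefSeq (GRCm38.p6). Capitals mark matches on either strand to 3 motifs. The motif of GATA factors was searched as AGATAA. That of CDX factors was searched as TTTATG, and for HNF1 the core letters GTTAA were used. RefSeq windows were read for 9 of the 10 genes. For Mep1b none was read, so nothing is said here about the sequence before its start.
Lct, chr1:128328319-128328568, minus strand: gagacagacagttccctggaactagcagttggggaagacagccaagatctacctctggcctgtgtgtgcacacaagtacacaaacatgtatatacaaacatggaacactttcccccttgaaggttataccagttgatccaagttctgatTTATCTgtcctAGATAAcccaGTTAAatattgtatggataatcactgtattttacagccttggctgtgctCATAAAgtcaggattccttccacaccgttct
Treh, chr9:44672983-44673232, plus strand: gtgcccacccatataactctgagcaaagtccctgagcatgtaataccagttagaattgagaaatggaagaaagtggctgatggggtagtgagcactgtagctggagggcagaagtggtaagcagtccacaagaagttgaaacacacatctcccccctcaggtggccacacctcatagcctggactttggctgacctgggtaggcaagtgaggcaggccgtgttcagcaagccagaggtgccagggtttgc
Dpp4, chr2:62412232-62412481, minus strand: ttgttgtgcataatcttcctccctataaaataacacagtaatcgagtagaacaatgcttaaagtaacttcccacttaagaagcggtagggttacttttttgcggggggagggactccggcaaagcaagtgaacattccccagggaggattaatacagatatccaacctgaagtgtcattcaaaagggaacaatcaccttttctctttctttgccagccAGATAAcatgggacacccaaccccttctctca
Vil1, chr1:74409134-74409383, plus strand: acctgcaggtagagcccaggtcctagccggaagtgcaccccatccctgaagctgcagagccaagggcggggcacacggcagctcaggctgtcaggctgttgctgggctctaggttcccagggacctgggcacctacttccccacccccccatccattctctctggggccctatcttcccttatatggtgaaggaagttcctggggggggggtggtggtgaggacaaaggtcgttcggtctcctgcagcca

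The Lct window held 2 GATA motif matches, at 101 to 96 and 90 to 85 bases before the start, an HNF1 core match at 80 to 76 and a CDX match on the opposite strand at 31 to 26. Treh and Vil1 had none of these matches in their windows, and Dpp4 had 1 GATA motif match at 32 to 27 bases. Among all 32851 windows of that length, 3281 held the GATA motif, 3536 the CDX motif and 7116 the HNF1 core. Because the Treh window held no match, Lct and Treh could not share any of the motifs searched here. Whether these genes have regulators in common was not tested, as a search for exact letters in such short windows cannot show it. The Sis window held 1 CDX and 1 HNF1 core match, and the Enpep window 1 HNF1 core match; Anpep, Mep1a and Alpi had none.

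Lct and Treh varied widely between arrays, while the probe sets that stand for the other members varied less. Over 12 arrays the SD was 0.62 for Lct and 0.46 for Treh, larger than in 99.7% and 99.4% of all probe sets, whose median SD was 0.115. The 6 other genes had SDs from 0.067 (Vil1) to 0.152 (Mep1a), larger than in 6.1% and 78% of all probe sets. Their total ranges ran from 0.21 to 0.50. The dimmer probe set of Dpp4 had an SD of 0.335, larger than in 98.3%. The mean level of each of the 6 lay above at least 98.6% of probe sets, against 91.2% for Lct and 94.8% for Treh. The part of the level in the spread was not tested. Without wild-type control replicate 2 the SD was still 0.48 for Lct and 0.39 for Treh, above 99.6% and 99.1% of probe sets, so their spread stayed in the same range without that array.

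**Figure D1:**
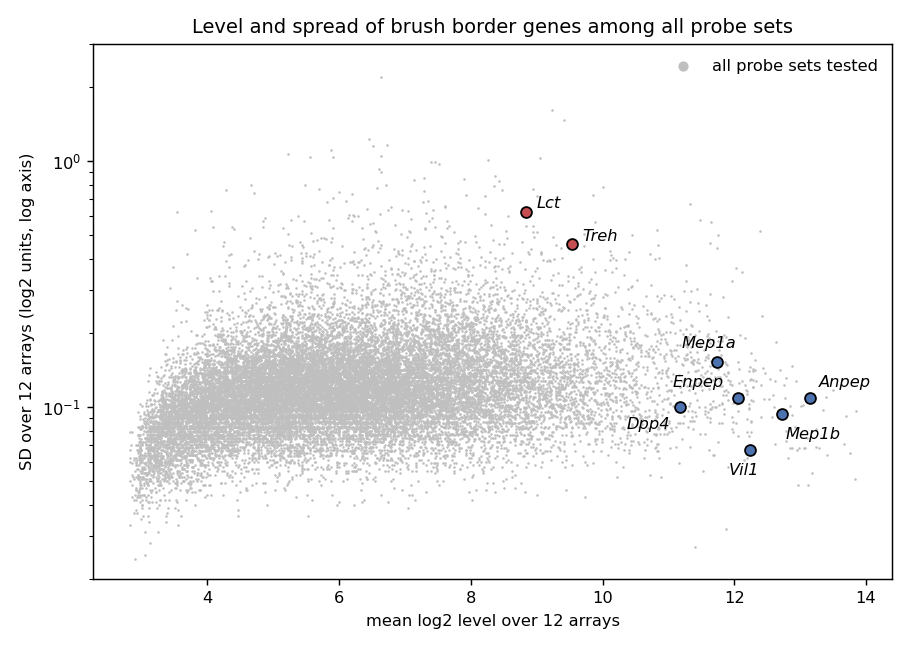
Mean log2 level over 12 arrays (x axis) against the SD over the same arrays (y axis, log scale) for all 22626 probe sets in grey, with Lct and Treh in red and the 6 other measured members in blue. Lct (SD 0.62) and Treh (SD 0.46) lie near the top of the cloud. The 6 others, with SDs from 0.067 to 0.152 and means from 11.18 to 13.15, lie at its right end.

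Among the disaccharidases, Lct, which splits milk sugar, stood at 9.02, 10.16 and 8.46 on the 3 wild-type control arrays. It was at 9.28, 8.46 and 9.30 on wild-type quercetin. POR-null control arrays read 7.87, 8.36 and 8.27, and POR-null quercetin arrays 9.34, 8.62 and 8.87. Every POR-null control array thus lay below all the other arrays, and wild-type control replicate 2 lay 0.82 above the next highest. Group means were 9.21 ± 0.87 in wild-type control, 9.01 ± 0.48 in wild-type quercetin, 8.94 ± 0.37 in POR-null quercetin and 8.17 ± 0.26 in POR-null control (SD, n = 3). The 3 highest means lay within 1 SD of the next among them, and POR-null control lay 0.78 below POR-null quercetin.

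Treh, which splits the fungal and insect sugar trehalose, read 9.39, 10.39 and 9.74 on wild-type control and 9.60, 9.13 and 9.46 on wild-type quercetin. On POR-null control it read 9.68, 9.04 and 8.71, and on POR-null quercetin 9.34, 9.72 and 10.12. Here too wild-type control replicate 2 was the highest array, by 0.27, and the POR-null control group had the lowest mean, but no pair of groups was free of overlap. Means were 9.84 ± 0.51, 9.40 ± 0.24, 9.14 ± 0.49 and 9.73 ± 0.39 in wild-type control, wild-type quercetin, POR-null control and POR-null quercetin (SD, n = 3).

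**Figure D2:**
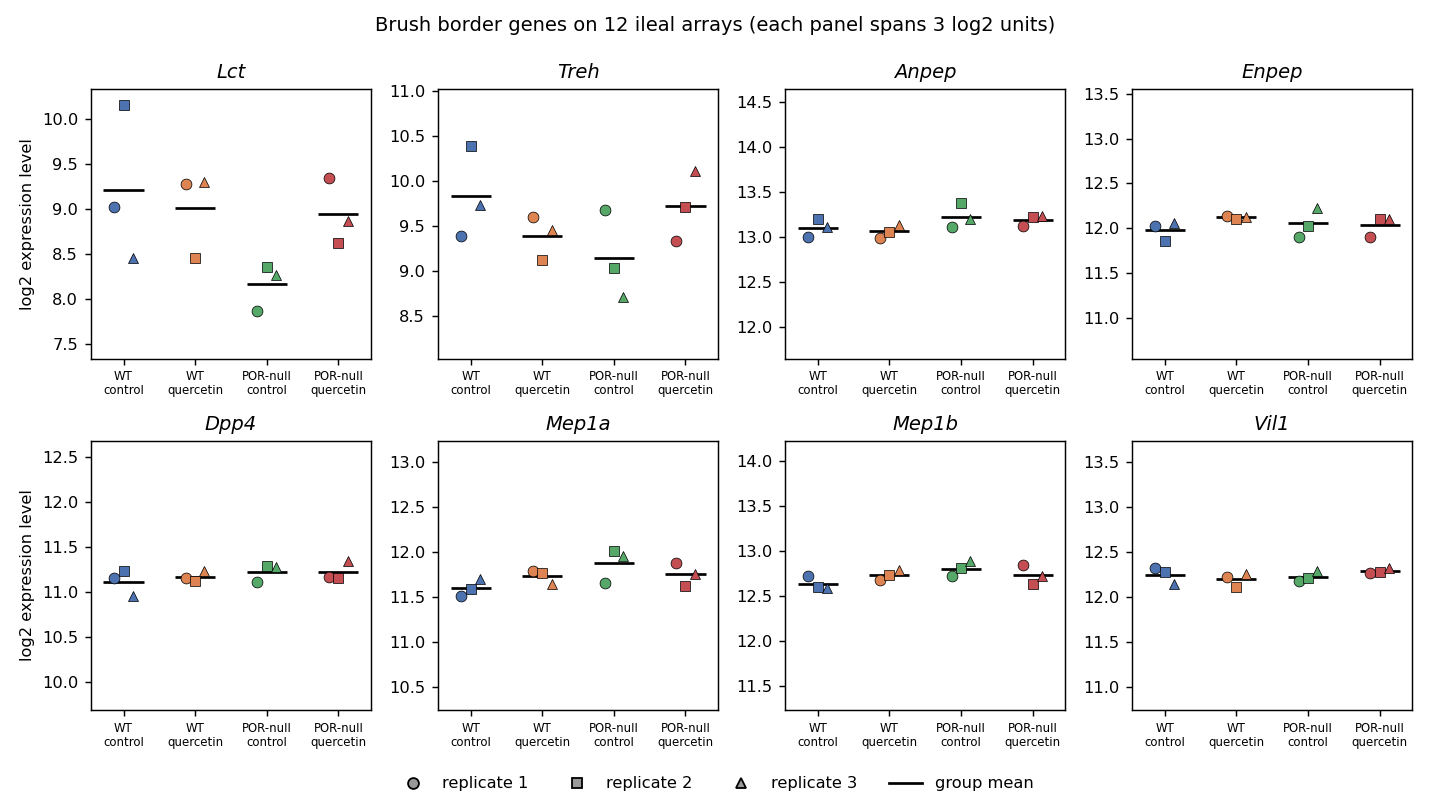
Log2 expression level (y axis; every panel spans 3 log2 units) of the 8 measured genes in the 4 groups (x axis), with 1 symbol per array, its shape giving the replicate number, and a line at the group mean. Lct runs from 7.87 to 10.16 and Treh from 8.71 to 10.39, whereas the 6 other genes stay within 0.50 of their own lowest array.

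Aminopeptidase N (Anpep), which removes neutral residues from the amino end of peptides, had group means of 13.10 ± 0.10 in wild-type control, 13.06 ± 0.08 in wild-type quercetin, 13.23 ± 0.14 in POR-null control and 13.19 ± 0.06 in POR-null quercetin (SD, n = 3). Aminopeptidase A (Enpep), which removes acidic residues, read 12.03, 11.86 and 12.06 on wild-type control and 12.14, 12.10 and 12.13 on wild-type quercetin, which did not overlap. Its POR-null arrays lay between 11.91 and 12.23 on either diet. Dipeptidyl peptidase 4 (Dpp4), which clips dipeptides after proline or alanine and inactivates incretin hormones, had group means from 11.12 to 11.23. Its dimmer probe set was noisier, with an SD of 0.34 and levels from 5.89 to 7.00, and its group means ran from 6.59 to 6.74.

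The meprins are metalloproteases of the apical membrane that act on peptides and mucus proteins. Meprin alpha (Mep1a) read 11.51, 11.59 and 11.70 on wild-type control, 11.79, 11.77 and 11.64 on wild-type quercetin, 11.65, 12.01 and 11.96 on POR-null control and 11.88, 11.62 and 11.75 on POR-null quercetin. Meprin beta (Mep1b) read 12.73, 12.60 and 12.59 on wild-type control and 12.72, 12.81 and 12.89 on POR-null control, with quercetin arrays from 12.64 to 12.85. For both genes wild-type control had the lowest group mean and POR-null control the highest, an order opposite to that of Lct and Treh on the control diet. Villin (Vil1) was the steadiest member, from 12.11 to 12.32, with group means between 12.20 and 12.29.

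The first comparison set quercetin against control food in wild type. No member passed limma's test at an adjusted p of 0.05, and over all probe sets 1 passed (0.00442%); the smallest adjusted p of a member was 0.577. None of the 9 member probe sets had an unadjusted p under 0.05, against 10.9% of all probe sets. Treh differed by -0.44 ± 0.27 (log2, SE; limma, adjusted p = 0.577) and Lct by -0.20 ± 0.35 (limma, adjusted p = 0.864). Without wild-type control replicate 2 these became -0.17 ± 0.26 for Treh and 0.27 ± 0.27 for Lct. Lct was also positive, at 0.08, without wild-type quercetin replicate 2, so its sign was not stable to the omission of single arrays. The lowest values were -0.58 for Lct, without wild-type control replicate 3, and -0.67 for Treh, without wild-type control replicate 1. Enpep differed by 0.14 ± 0.09 and was the 1 member of 8 whose groups did not overlap, as in 13.4% of all probe sets; without wild-type control replicate 2, its lowest array, the difference was 0.08 ± 0.10. B cell genes were higher on quercetin in 5 of 5, with a median of 0.50 and mean centred levels of 0.18 to 0.54 against -0.44 to 0.14 in control, and crypt genes in 7 of 8, with a median of 0.29 (0.40 and 0.17 for the lists' medians without that array). Their part in the members' values was not tested. The 95% confidence intervals of the 6 steady members, over all 4 comparisons between groups, reached from -0.34 to 0.49. Lct had an interval of -0.94 to 0.54 here, so that the error allowed for nearly a halving of its signal.

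In POR-null mice, where the same diet was compared with control, both disaccharidases had higher means on quercetin. Lct went from 8.17 to 8.94, a difference of 0.78 ± 0.35 or 1.71-fold (log2, SE; limma, unadjusted p = 0.0416, adjusted p = 0.727), and the 3 quercetin arrays lay above the 3 control arrays, a separation of groups in either direction seen in 12.6% of all probe sets. Treh differed by 0.58 ± 0.27 (limma, unadjusted p = 0.0492, adjusted p = 0.746), with overlapping groups. No member passed, as no probe set did over the whole table (0%), and 2 of 8 genes had an unadjusted p under 0.05 against 6.65% of probe sets. That count ran from 0 to 2 over the alternatives. The 6 other members differed by -0.12 (Mep1a) to 0.06 (Vil1). The difference itself uses no wild-type array, but its error comes from all 12: without wild-type control replicate 2 the SE for Lct was 0.24 (limma, unadjusted p = 0.0062, adjusted p = 0.618). Leaving out each array in turn kept Lct between 0.58 and 0.94 and Treh between 0.37 and 0.85. B cell genes were lower on quercetin in 4 of 5 here, with a median of -0.42 and mean centred levels of -0.34 to 0.00 against -0.16 to 0.27 in control. Paneth cell genes were higher in 4 of 4, with a median of 0.35 and levels of 0.16 to 0.57 against -0.31 to 0.14. Of these, 3 B cell genes and 1 Paneth cell gene had an unadjusted p under 0.05 and none passed limma's test after adjustment; their part in the values of Lct and Treh was not tested.

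**Figure D3:**
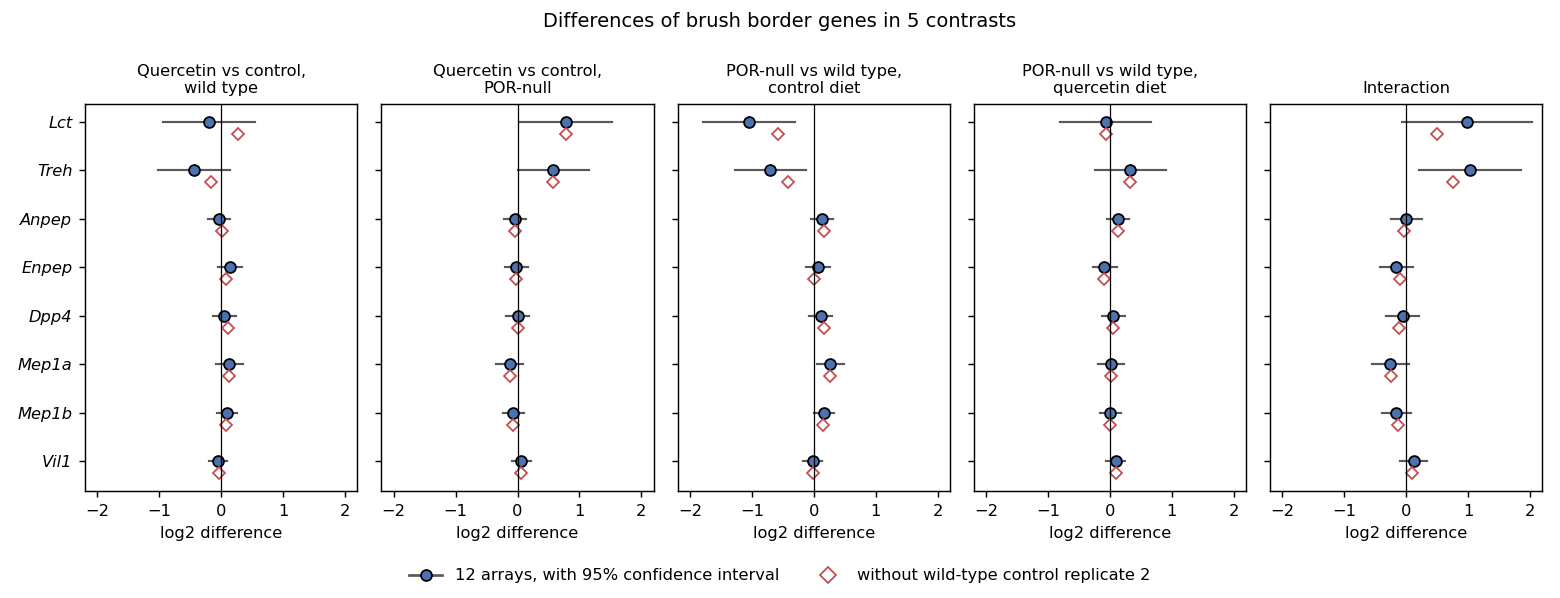
Differences of the 8 genes (log2, x axis) in the 4 comparisons between groups and in their interaction, as blue points with 95% confidence intervals from all 12 arrays, and red open diamonds without wild-type control replicate 2. The intervals for Lct and Treh are several times wider than those of the 6 other genes, and the diamonds for Lct move from -1.05 to -0.57 for the genotypes on the control diet and from -0.20 to 0.27 for quercetin in wild type.

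On the control diet, where POR-null was compared with wild type, Lct lay lower in POR-null by 1.05 ± 0.35, a level of 0.484 times wild type (log2, SE; limma, unadjusted p = 0.00922, adjusted p = 0.375). All 3 POR-null arrays were below all 3 wild-type arrays, and the groups of this comparison were apart in either direction in 13.9% of all probe sets. Treh differed by -0.70 ± 0.27 (limma, unadjusted p = 0.0223, adjusted p = 0.422). Mep1a differed the other way, by 0.27 ± 0.10, and Mep1b by 0.17 ± 0.08 (limma, unadjusted p = 0.0171 and 0.048, adjusted p = 0.397 and 0.49). Thus 4 of 8 genes had an unadjusted p under 0.05, against 10.1% of all probe sets, and none passed after adjustment (0% over all probe sets).

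Without wild-type control replicate 2, 1 member had an unadjusted p under 0.05, and the count was also 1 without POR-null control replicate 2 or replicate 3. The matching shares of all probe sets are not given for these fits, so the lower counts are not read as a result about the members. In the first of these fits Mep1a stayed at 0.27 ± 0.12, Mep1b came to 0.15 ± 0.09, Lct to -0.57 ± 0.27 and Treh to -0.42 ± 0.26. The direction did not turn for these genes when any single array was left out, with Lct between -1.42 (without wild-type control replicate 3) and -0.57. Anpep (0.13 ± 0.08), Dpp4 (0.11 ± 0.09), Enpep (0.07 ± 0.09) and Vil1 (-0.02 ± 0.07) differed less, and stood at 0.17, 0.17, 0.01 and -0.01 without that array. Smooth muscle genes moved with this comparison, with 8 of 8 higher in POR-null and a median of 0.89; their mean centred level ran from -0.91 to -0.22 in wild-type control and from -0.64 to 1.18 in POR-null control. The actin gene Acta2, a defining marker, read 7.40 to 8.05 in the former and 7.59 to 9.36 in the latter. The part of the smooth muscle genes in the differences of Lct and Treh was not tested.

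Between the genotypes on the quercetin diet no member passed. Lct differed by -0.07 ± 0.35 and Treh by 0.33 ± 0.27 (limma, adjusted p = 0.983 and 0.822). The 6 other members differed by -0.09 (Enpep) to 0.13 (Anpep). No probe set passed over the whole table either (0%), no member had an unadjusted p under 0.05 against 7.01% of probe sets, and Vil1, at 0.09 ± 0.07, was the 1 member whose groups did not overlap, against 12.3% of probe sets. The smallest adjusted p of a member was 0.773. For Lct the 95% interval was -0.81 to 0.67. Smooth muscle genes had a median of 0.82 here, with 8 of 8 higher in POR-null, and B cell genes one of -0.72, with 4 of 5 lower; their part was not tested.

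The difference between the quercetin effects of the genotypes was tested as an interaction, in which POR-null minus wild type was 1.03 ± 0.38 for Treh (limma, unadjusted p = 0.0181, adjusted p = 0.435) and 0.98 ± 0.49 for Lct (limma, unadjusted p = 0.0658, adjusted p = 0.508). Neither passed, and 0% of all probe sets did. Only Treh, 1 of 8 members, had an unadjusted p under 0.05, against 10.3% of probe sets; without single arrays the count ran from 0 to 3. Without wild-type control replicate 2 the interaction was 0.75 ± 0.35 for Treh and 0.50 ± 0.36 for Lct, the lowest values with any single array left out. The highest were 1.30 for Treh, without POR-null control replicate 1, and 1.35 for Lct, without wild-type control replicate 3. Mep1a stood at -0.26 ± 0.14 and the remaining members between -0.16 and 0.12. B cell genes had a median interaction of -0.92, with 5 of 5 below 0 and 4 at an unadjusted p under 0.05, and their part was not tested. All 5 tests share arrays, and their values are therefore not independent of one another.

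Wild-type control replicate 2 was the highest of 12 arrays for Lct and Treh and the lowest for Enpep, and was second lowest for Mep1a and Mep1b. Over all probe sets that array was highest for 11.8% and lowest for 11.9%. Of 13 genes of the proximal small intestine, 7 were highest there, and their mean centred level was 0.54 against -0.30 to 0.30 on the other arrays. Fabp1, the liver-type fatty acid binding protein, read 11.48 there and 7.76 to 10.20 elsewhere, and the glucose transporter gene Slc2a2 read 8.62 against 5.46 to 8.12. Not all proximal genes went this way. Sct, 1 of the 13, was lowest there at 8.55, and Slc40a1 (7.06 against a mean of 7.45), Apoa1 and Cck were below their means. Ileal segment genes scored -0.35 there, the lowest of the arrays, with 4 of 10 at their lowest level. Crypt and proliferation genes scored -0.36 (5 of 8 lowest), T cell genes -0.42 (5 of 7 lowest) and Paneth cell genes -0.78 (3 of 4 lowest), with the Paneth lysozyme gene Lyz1 at 10.90 against 12.23 to 13.02. General enterocyte genes scored 0.02 on it, within the range of -0.08 to 0.08 over the other arrays. The part of these gene groups in the levels of Lct and Treh was not tested.

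**Figure D4:**
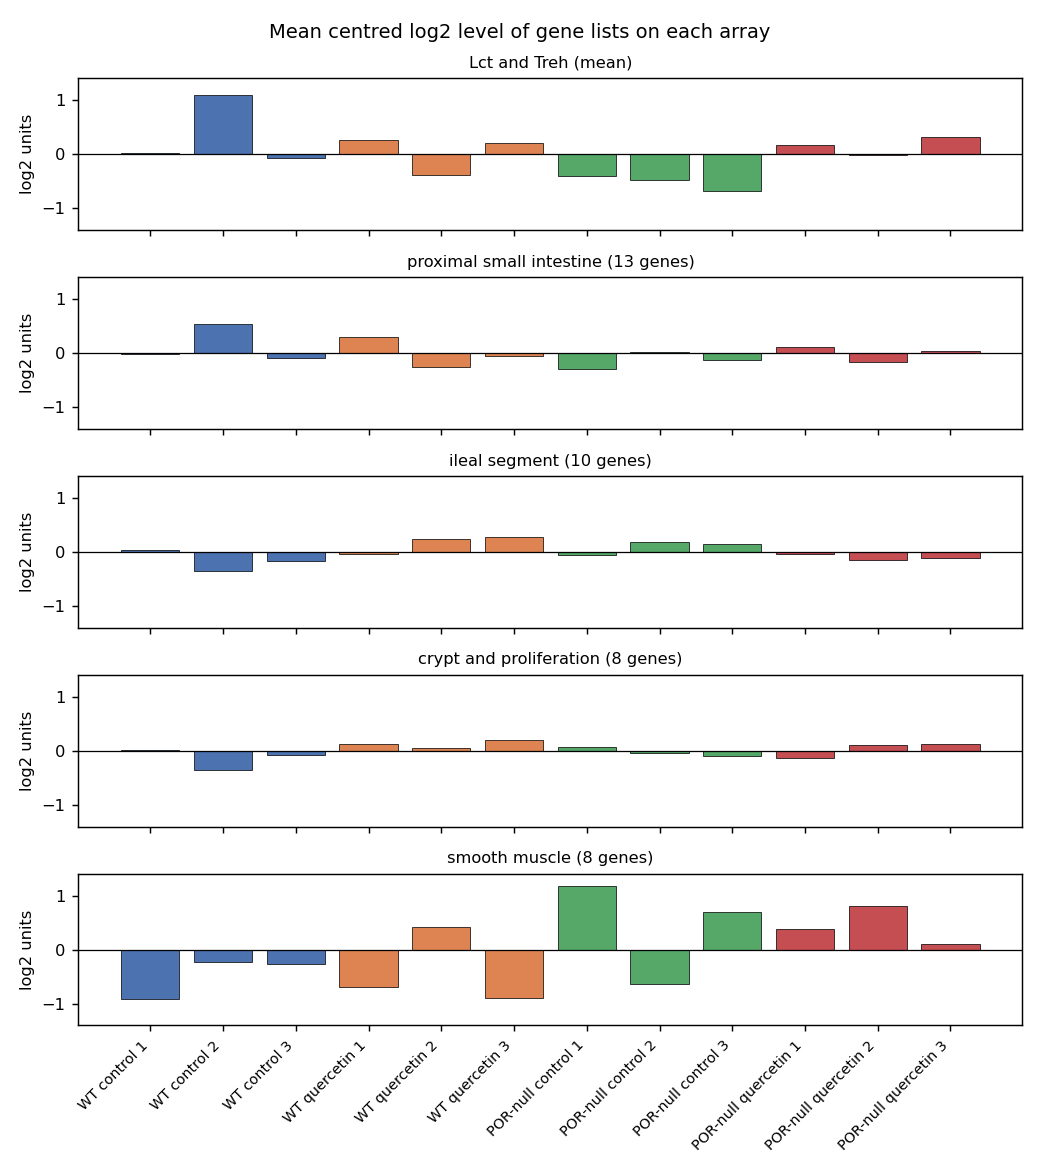
Mean log2 level of each gene list after centring every gene on its mean over 12 arrays (y axis, log2 units), for each array (x axis), coloured by group. Wild-type control replicate 2 has the highest bar for Lct and Treh (1.09) and for proximal genes (0.54), and the lowest for ileal segment (-0.35) and crypt genes (-0.36).

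Lct read 8.46 on both wild-type quercetin replicate 2 and wild-type control replicate 3. On the former, the array with the high Car1 level, proximal genes scored -0.26 and colon markers 1.21, with Aqp8 also highest there (6.63) and Slc26a3, at 7.95, below its mean of 8.04. On the latter the scores were -0.09 and -0.14. POR-null control replicate 1, the lowest array for Lct at 7.87, had the lowest proximal score, -0.30, and the highest smooth muscle score, 1.18. On that array Treh, at 9.68, was above its mean of 9.53, so the 2 disaccharidases did not always move together.

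Across the 12 arrays Lct and Treh correlated with Pearson's r of 0.51 and Spearman's rho of 0.35 (permutation test with 100000 resamples, p = 0.0869 and 0.269; adjusted over 28 pairs of members, 0.348 and 0.74). Without wild-type control replicate 2 the r was 0.20, with group means removed 0.27, and without the 2 arrays farthest from the median of Lct (POR-null control replicate 1 and that array) 0.39. Treh and Mep1b ran in opposite directions, with r of -0.77 and rho of -0.84 (permutation p = 0.00399 and 0.00116, adjusted 0.112 and 0.0325). Without the 2 arrays farthest from the median of Treh, POR-null control replicate 3 and wild-type control replicate 2, the r was -0.54. It was -0.70 with group means removed, and also -0.70 without wild-type control replicate 2. By Spearman's rho 1 of the 28 pairs passed after adjustment, by Pearson's r none did (0 of 28, with 4 at an unadjusted permutation p under 0.05). Mep1a and Mep1b, whose products pair as subunits of meprin A, had r of 0.65 and rho of 0.61 (permutation p = 0.0216 and 0.0384, adjusted 0.22 and 0.261), with r of 0.42 without the 2 arrays farthest from the median of Mep1a.

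**Figure D5:**
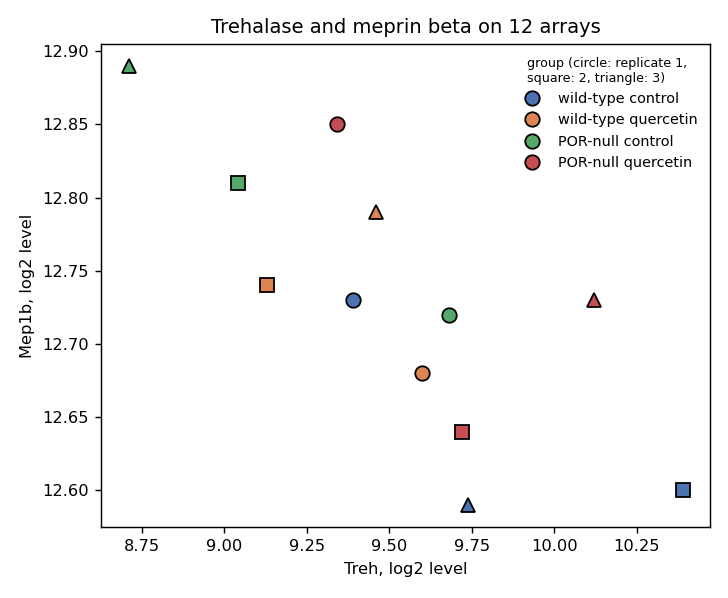
Log2 level of Treh (x axis) against Mep1b (y axis), 1 symbol per array with colour for the group and shape for the replicate number. Arrays with more Treh have less Mep1b (r of -0.77 over 12 arrays), while Mep1b spans 0.30 and Treh 1.68 log2 units.

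The genes whose pattern was most like the mean of Lct and Treh were ranked by Pearson's r over 12 arrays among 7302 genes above the median level, as a description without a test. The 8 highest were Agrn (0.94), which encodes the basement membrane proteoglycan agrin, the glucuronosyltransferase gene Ugt2a3 (0.90), the orphan nuclear receptor gene Esrrg (0.90), the vitamin C transporter gene Slc23a1 (0.89), Ptgr1 (0.89), the apolipoprotein genes Apoa4 and Apoc3 (0.88 each) and Mmab (0.87), a cobalamin enzyme gene. All 8 read highest on wild-type control replicate 2. The ranking itself favours this, because the mean centred level of Lct and Treh was 1.09 on that array. Without that array Agrn kept 0.92 and Ugt2a3 0.84, the others lay between 0.74 and 0.81, and 2 of the 8 were again among the 8 highest; by Spearman's rho 2 of the 8 were. Of 11 ranked proximal genes, 9 had a positive r, with a median of 0.70 (0.48 without that array), against a median of -0.01 over all ranked genes. Ileal segment genes had a median of -0.38, or -0.13 without that array. Paneth cell genes went from a median of -0.23 to 0.59 without it, with 4 of 4 then positive. Crypt genes went from -0.18 to 0.36, with 7 of 7 then positive, and smooth muscle genes from -0.35 to -0.42, with 0 of 7 positive. Without that array the likeness was thus not particular to proximal genes.

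Other hydrolases of the brush border held both steady and variable genes, and none of the 9 measured of 16 listed passed limma's test in any comparison. On the control diet 8 of 9 were lower in POR-null, with a median of -0.17 (-0.05 without wild-type control replicate 2), against a median of -0.02 over all probe sets; 3 of 9 had an unadjusted p under 0.05, all lower, against 10.1% of all probe sets, and 2 of 9 without that array. They were the ecto-5'-nucleotidase gene Nt5e (-0.59 ± 0.17), the nucleotide pyrophosphatase gene Enpp3 (-1.29 ± 0.41) and the neutral ceramidase gene Asah2 (-0.56 ± 0.22; limma, adjusted p = 0.338, 0.364 and 0.417). Enpp3 read 9.49 on wild-type control replicate 2 and 6.63 to 7.65 on the other arrays, and without it the differences were -0.36 ± 0.14 for Nt5e, -0.60 ± 0.19 for Enpp3 and -0.40 ± 0.23 for Asah2. In wild type on quercetin Nt5e differed by -0.73 ± 0.17, Enpp3 by -1.12 ± 0.41 and the angiotensin-converting enzyme gene Ace by -0.40 ± 0.17 (limma, adjusted p = 0.24, 0.357 and 0.412), with a list median of -0.02. Without wild-type control replicate 2 these were -0.50 ± 0.14, -0.43 ± 0.19 and -0.18 ± 0.14, and 2 of 9 rather than 3 of 9 had an unadjusted p under 0.05 (10.9% of all probe sets with every array). In POR-null on quercetin the duodenal alkaline phosphatase gene Akp3 differed by 0.37 ± 0.15 (limma, adjusted p = 0.72). The list median there was 0.07 with 6 of 9 higher, against 54.76% of all probe sets. Akp3 was dim, with a mean of 5.80 where the median level over all probe sets was 5.93. Between genotypes on quercetin the list median was 0.10 with 5 of 9 higher, against 55.5% of all probe sets.

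Structural genes of the microvillus, 7 measured of 10 listed, had list medians of 0.00, -0.04, 0.04 and 0.01 in the 4 comparisons taken in the order above. Ush1c, a scaffold of the links between microvilli, differed by -0.27 ± 0.08 on quercetin in POR-null and Eps8, an actin-capping protein gene, by -0.26 ± 0.10 on quercetin in wild type (limma, adjusted p = 0.658 and 0.364). Transcription factors of enterocyte genes, 11 measured of 14 listed, had medians from -0.03 to 0.03 in those comparisons, and none passed. Among them Cdx1, a homeobox gene of the distal gut, differed by 0.37 ± 0.12 and Creb3l3 by -0.39 ± 0.11 between genotypes on the control diet (limma, adjusted p = 0.358 and 0.318), or 0.28 ± 0.12 and -0.26 ± 0.09 without wild-type control replicate 2. Gata4, a factor of the proximal intestine, had an interaction of 0.67 ± 0.26 (limma, adjusted p = 0.445) and was highest, at 6.89, on wild-type control replicate 2, without which the interaction was 0.49 ± 0.25.

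Proximal genes beyond the members, all 13 listed of which were measured, had a median of 0.19 on quercetin in POR-null. There 12 of 13 were higher, against 54.76% of all probe sets. Cck (0.04) and Pdx1 (0.06) counted among the 12 but were dim, with means of 4.42 and 4.49. Between genotypes on the control diet the median was -0.20 (-0.13 without wild-type control replicate 2). There 9 of 13 were lower, where 43.54% of all probe sets were higher. No gene passed in either. Apoc3 differed by -0.81 ± 0.23 and Apoa4 by -0.56 ± 0.20 between genotypes on the control diet (limma, adjusted p = 0.33 and 0.391), or by -0.55 ± 0.20 and -0.34 ± 0.19 without that array. The iron exporter gene Slc40a1 was the exception on quercetin in POR-null, at -1.11 ± 0.26 (limma, adjusted p = 0.448). Ileal segment genes had medians of 0.18 on quercetin in wild type, -0.15 on quercetin in POR-null, 0.36 between genotypes on the control diet and -0.07 on quercetin, the opposite sign to the median of the proximal genes in each of the first 3; the 0.36 was 0.13 without wild-type control replicate 2.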

How the data were processed

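Labelled RNA was hybridised to Affymetrix 430A arrays. The authors deposited a table of log2 levels with 1 value for each probe set on each array, from 2.66 to 14.04. MAS5 and RMA appear in the submitters' processing notes with neither role nor version, so how background and scaling bear on dim probe sets is not given in the sources used here. No further normalization was applied. Of 22690 probe sets, 64 controls were left out. The platform annotation gave 1 symbol to 20380, several to 691 and none to 1555, and gene IDs tied 20351 of the singly named ones to RefSeq genes. Where a gene had several probe sets, the brightest on average stood for it.

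The 4 group means were estimated with limma 3.58.1 under R 4.3.3 from all 12 arrays, by lmFit then eBayes (8 degrees of freedom from the arrays and 5.59 from the prior). Benjamini-Hochberg adjustment covered all 22626 probe sets, with a threshold of 0.05. The number of arrays limits the precision: the median SE of a difference between groups was 0.0886. P-values measure the spread between pools. The fit was tested on simulated data. Permutation tests were two-sided. Every member is named, and for each other list up to 3 genes with the smallest p in a comparison; the likeness rule, which also listed Alpi, named 8 genes. Members and lists were chosen with earlier results of these data known. Alternatives were quantile normalization, median centring, filters on dim probe sets, eBayes with trend and robust, weights for arrays, a block for the replicate number, a fit on each pair of groups, averaging a gene's probe sets, and omission of each array in turn.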

Additional observations from a re-analysis of the deposited data

How the results depend on the processing

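No member passed the threshold under any alternative in any of the 5 tests: over 832 recomputed differences of 8 genes, 0 were called by limma, and the smallest adjusted p was 0.198, for Treh between genotypes on the control diet without wild-type control replicate 1. At an unadjusted p under 0.05, limma counted 0, 2, 4, 0 and 1 of the 9 member probe sets in the tests taken in the order of the report. The sign turned in 41 of the 832, in 14 of the 40 differences, none of which was larger than 0.20 with all arrays; Lct on quercetin in wild type was the largest of them. The labels do not say whether the replicate numbers pair the arrays, and the main fit did not pair them. Deviations of same-numbered arrays correlated between -0.104 and 0.162, over 0.1 in 2 of 12 pairs. In 5 of 12 checks, in which an array could count more than once, the best match had the same number. With the replicate block 0 member probe sets passed, Lct between genotypes on the control diet stayed at -1.05 ± 0.37 and the Treh interaction at 1.03 ± 0.42, and the probe sets called in the 5 tests went from 1, 0, 0, 0 and 0 to 5, 0, 0, 2 and 3. These counts over all probe sets moved by more than 1.5 times elsewhere too, with 0 members among them. For quercetin in wild type the 1 became 7 with eBayes trend and robust or without the lower quartile of levels, 59 without wild-type control replicate 1 and 0 to 3 in the other fits. Between genotypes 15 were called on the control diet without wild-type control replicate 1 and 5 on quercetin with trend and robust, and the interaction called 9 without wild-type control replicate 1; 0 to 2 were called in the other fits of these 3. With 3 arrays per group, differences in Lct or Treh of the size of their SDs could not be told from the spread between pools.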
